A study of Mus musculus with 8 samples.

Results

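The genes described here are 10 members of the hypoxia-inducible factor (HIF) pathway, chosen by name from the 48795 genes of a count table of mouse bone marrow cells. They are the factor subunits Hif1a, Epas1 and Arnt, the oxygen sensors Egln1, Egln2, Egln3 and Hif1an, the degradation factor Vhl, and the targets Vegfa and P4ha1. All 10 symbols matched 1 identifier each. RNA was measured in 8 libraries of LSK cells, a marrow fraction sorted as lacking lineage markers and carrying Sca-1 and c-Kit, which holds stem cells and early progenitors. The cells came from C57BL/6 mice in which chronic myeloid leukaemia (CML) had been induced for 10 weeks. The 4 control libraries came from cre-negative mice and the 4 Sirt1-deleted libraries from cre-positive mice, so both groups carried the leukaemia model. The driver of the Cre, the way CML was induced and the age of the mice are not stated in the labels. The series asks how SIRT1, an NAD-dependent protein deacetylase, bears on mitochondrial respiration and leukaemic capacity of CML stem cells, and HIF is a known regulator of both oxygen use and glycolysis.

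HIF is a heterodimer of an oxygen-labile alpha subunit and the stable beta subunit ARNT. In the presence of oxygen, prolyl hydroxylases of the EGLN family modify the alpha subunit, the VHL protein recognises the hydroxylated form, and a ubiquitin ligase marks it for the proteasome. A further hydroxylase, encoded by Hif1an, modifies an asparagine and blocks the binding of coactivators. Since this control acts on protein, transcript levels of the alpha subunits do not show the activity of the factor. The stem cell niche of the marrow is known as poor in oxygen.

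Promoter sequences are shown for Egln3, P4ha1 and Vegfa, the members best known as genes that HIF switches on, to show where the core motif of the factor lies in them. Each sequence is the stretch of 250 bases before the RefSeq transcription start (GRCm38.p6), 5′ to 3′ on the strand of the gene. Capitals mark the HIF core motif, ACGTG or GCGTG, read on either strand.
Egln3, chr12:54203875-54204124, minus strand: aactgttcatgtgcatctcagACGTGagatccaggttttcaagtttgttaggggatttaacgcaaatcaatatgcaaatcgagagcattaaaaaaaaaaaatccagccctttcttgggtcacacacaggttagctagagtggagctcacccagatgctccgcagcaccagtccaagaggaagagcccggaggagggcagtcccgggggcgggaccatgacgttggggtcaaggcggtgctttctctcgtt
P4ha1, chr10:59323046-59323295, plus strand: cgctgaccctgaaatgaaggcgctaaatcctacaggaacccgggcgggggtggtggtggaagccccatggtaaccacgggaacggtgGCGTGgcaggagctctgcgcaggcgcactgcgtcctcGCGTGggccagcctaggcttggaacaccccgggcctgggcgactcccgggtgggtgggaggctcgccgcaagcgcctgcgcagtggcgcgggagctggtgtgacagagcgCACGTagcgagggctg
Vegfa, chr17:46032378-46032627, minus strand: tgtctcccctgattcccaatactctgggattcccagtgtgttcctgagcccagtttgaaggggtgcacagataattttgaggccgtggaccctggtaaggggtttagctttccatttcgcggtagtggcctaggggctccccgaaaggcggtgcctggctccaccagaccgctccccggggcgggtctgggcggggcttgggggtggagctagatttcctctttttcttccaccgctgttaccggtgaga
The window held 1 motif for Egln3, 3 for P4ha1 and 0 for Vegfa. A second RefSeq start of Vegfa lies within the gene, and its window, which held 2 motifs, is not shown. RefSeq windows were found for 9 of the members, all but Epas1. The motif lay in 8 of their 11 windows (72.7%), against 38.6% of 32817 windows over all genes and 63.9% of the 9171 windows with at least 60% GC. The member windows had 48.0 to 86.0% GC, so neither share is a matched background. Egln2 and Vegfa entered with 2 windows each. The second window of each lies within the gene and is among the 8 with the motif. ACGTG is also part of the E-box CACGTG, which none of the 3 printed windows holds. A match of letters is not a binding site.

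The libraries held 18252562 to 34280925 gene counts, with 15316 to 20342 genes detected. The fewest were in control 2 (15316) and in Sirt1-deleted 1 (16154). The Sirt1 count was 147 to 498 in the control group and 218 to 441 in the deleted group (log2 fold change -0.26 ± 0.39, SE), a count over the whole gene that does not show whether exons are missing. The LSK markers Kit (32.4 to 44.0 CPM in controls, 108 to 157 in the deleted group), Cd34 (227 to 305 and 419 to 592) and Flt3 (150.5 to 223 and 293 to 372) were detected in every library and did not overlap between the groups; CPM are counts per 1000000 counts of the library. Ly6a, the gene of the sorting marker Sca-1, went the other way without overlap (232 to 780 CPM in controls, 119 to 224 in the deleted group). The summed level of the 10 LSK markers overlapped between the groups (894.1 to 1626.5 and 1239.6 to 1538.0 CPM). For the granulocyte-monocyte progenitor marker Ms4a3 the groups did not overlap (558 to 743 and 223 to 322 CPM). Kit and Ms4a3 are among the 12 genes that edgeR called. The part of these differences in the values of the 10 genes was not tested. Markers of other cells were also present. The summed level of 6 B and plasma cell markers ran from 463.9 to 4700.0 CPM, and that of 6 mast cell and basophil markers from 256.3 to 5402.2. The sums of the T and NK, endothelial and stromal lists did not overlap between the groups. The T and NK sum, mostly Nkg7, was 601.9 to 712.3 CPM in the control group and 458.9 to 515.6 in the deleted group. The endothelial sum, mostly Pecam1, was 50.3 to 90.7 and 111.5 to 129.9 CPM. The stromal sum, mostly Pdgfrb, was 4.39 to 26.6 and 41.6 to 87.9 CPM. In such mixed samples fewer cells of a type and less RNA per cell cannot be told apart. The groups also differ wholly in the first digit of the library titles (1 or 2 in controls, 3 or 4 in Sirt1-deleted), so whatever it marks cannot be told apart from genotype.

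None of the 10 genes passed the test between the genotypes. The edgeR quasi-likelihood test called 12 of 14178 genes tested (0.0846%; 0.0494% higher and 0.0353% lower) at an adjusted p under 0.05, and 0 of the 10. All 10 passed the filter on low counts. At an unadjusted p under 0.05 there were 0 of 10 by edgeR, against 16.2% of all genes, and 0 to 4 of 10 when single libraries were left out. DESeq2 had 1 at that level, Hif1a (adjusted p = 0.238), against 13.2% of its genes. Limma-voom had 2, P4ha1 (adjusted p = 0.117) and Egln1 (adjusted p = 0.179), against 26.4%. After adjustment DESeq2 called 8.15% of its genes and limma-voom 8.03%, and both called 0 of the 10. The groups overlapped for every member, whereas they did not overlap for 13.1% of all genes (6.64% higher and 6.44% lower in Sirt1-deleted libraries). Log2 fold changes, Sirt1-deleted minus control, ran from -1.12 to 0.74, with 6 negative and 4 positive and a median of -0.26, beside 0.06 over all genes tested.

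**Figure D1:**
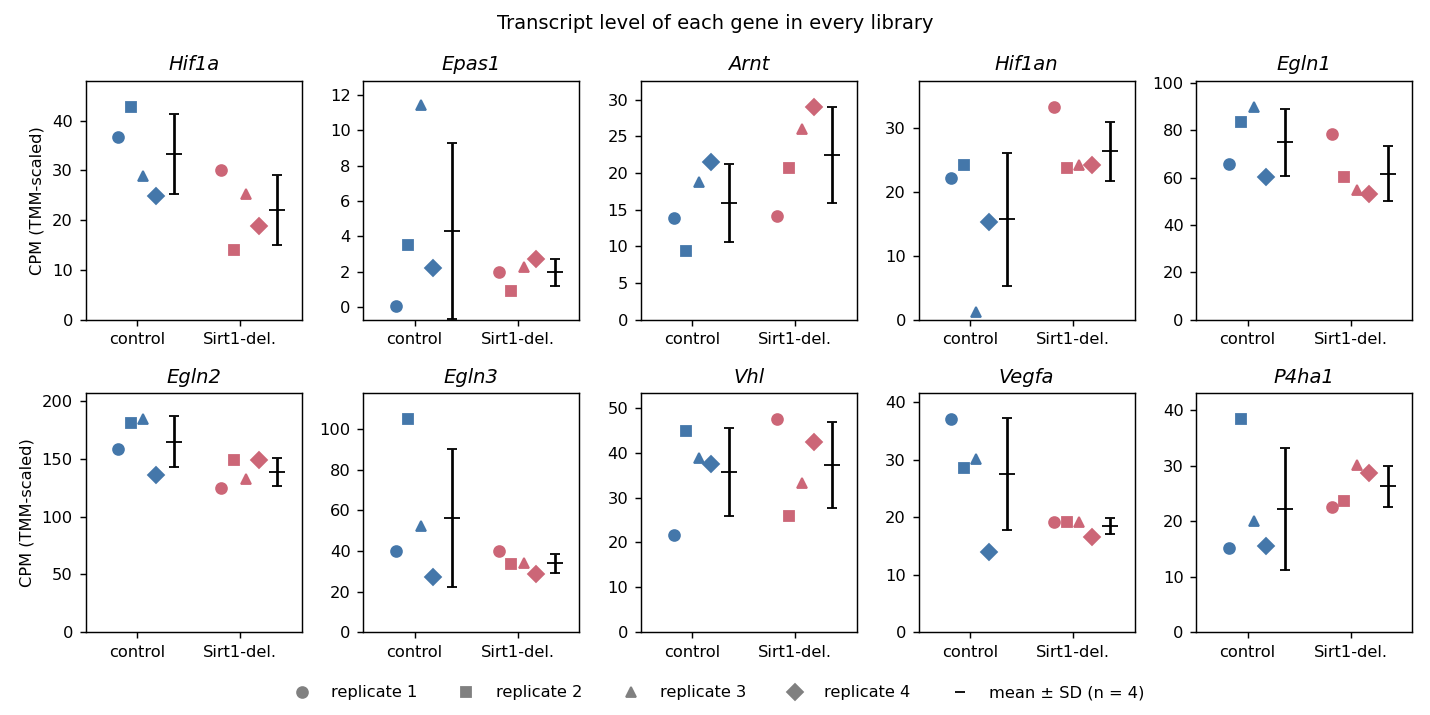
CPM of each of the 10 genes in every library (y axis, TMM-scaled, each panel with its own scale from 0 except Epas1, whose error bar reaches below 0). Symbols mark replicates, which are not paired across groups, and black bars the mean ± SD of 4 libraries; the groups overlap in every panel, and control 2 stands above the other controls for Egln3 and P4ha1.

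Hif1a, the gene of the HIF alpha subunit present in most cells, had its 2 lowest values in Sirt1-deleted libraries. It had 36.8, 42.8, 28.8 and 24.9 CPM in controls 1 to 4 and 30.0, 14.1, 25.3 and 18.8 CPM in Sirt1-deleted libraries 1 to 4. Sirt1-deleted 2 and 4 lay below every control and Sirt1-deleted 1 and 3 lay within the control range. The means were 33.3 ± 8.04 and 22.0 ± 7.02 CPM (SD, n = 4 each). The log2 fold change was -0.60 ± 0.28 (SE), with a 95% interval from -1.25 to 0.05 (edgeR adjusted p = 0.348). The gene (ENSMUSG00000021109.13) lies on chromosome 12, 73901375 to 73947530, plus strand (GRCm38, GENCODE M21). The antisense gene Gm15283 overlaps its exons and had 0 to 33 counts, while Gm49321, which overlaps it on the same strand, was not analysed here. The library chemistry does not mark strand.

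Epas1 (ENSMUSG00000024140.9, chromosome 17, 86753700 to 86833410, plus strand) encodes the second alpha subunit, a prominent one in endothelial cells. It was the lowest member and the most variable. Controls 1 to 4 held 1, 98, 206 and 47 counts (0.043, 3.53, 11.4 and 2.23 CPM), and Sirt1-deleted libraries 1 to 4 held 52, 35, 56 and 88 (2.01, 0.927, 2.28 and 2.71 CPM). The 4 Sirt1-deleted values all lay between the lowest and the highest control. The log2 fold change was -1.12 ± 1.14 (SE, 95% interval -3.70 to 1.47, edgeR adjusted p = 0.689). It was -0.01 without control 3, -1.56 without control 1 and 0.46 by limma-voom. The 8 endothelial markers summed to 57.9 CPM in control 3, inside the range of the other controls, of which Pecam1, a gene that blood progenitors also express, gave 54.9 CPM. The other endothelial markers were at 0 to 1.38 CPM there, with Tek and Sox17 at 0, and their part in the Epas1 value was not tested.

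Arnt (ENSMUSG00000015522.18, chromosome 3, 95434388 to 95497240, plus strand), the beta subunit that pairs with either alpha subunit, leaned the other way from Hif1a without passing the test. It had 13.9, 9.44, 18.8 and 21.5 CPM in controls 1 to 4 and 14.2, 20.7, 26.0 and 29.0 CPM in Sirt1-deleted libraries 1 to 4. Sirt1-deleted 3 and 4 were above every control, while Sirt1-deleted 1 lay next to control 1. Between the groups the log2 fold change was 0.50 ± 0.33 (SE, 95% interval -0.25 to 1.25, edgeR adjusted p = 0.519), 0.28 without control 2 and 0.32 without Sirt1-deleted 4. A ratio within a library does not depend on scaling. The log2 ratio of Arnt to Hif1a counts was -1.10 ± 0.87 in controls and 0.04 ± 0.79 in Sirt1-deleted libraries (SD, n = 4 each), a difference of 1.14 (exact two-sided permutation p = 0.114, adjusted p = 0.457 over 4 ratios; the smallest p this design allows is 0.0286). Its range was -2.18 to -0.21 among control libraries and -1.08 to 0.62 among the others, so the groups overlap. The log2 ratio of Epas1 to Hif1a was -4.39 ± 3.34 and -3.51 ± 0.52 (exact permutation p = 0.800, adjusted p = 0.857).

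Egln1 (ENSMUSG00000031987.6, chromosome 8, 124908587 to 124949324, minus strand) encodes PHD2, the hydroxylase that sets HIF1A levels in most cells. It had 65.8, 83.5, 90.1 and 60.4 CPM in controls 1 to 4 and 78.7, 60.5, 55.0 and 53.0 CPM in Sirt1-deleted libraries 1 to 4. Sirt1-deleted 3 and 4 lay below every control, and Sirt1-deleted 1 lay between controls. Its log2 fold change was -0.28 ± 0.19 (SE, 95% interval -0.71 to 0.16, edgeR adjusted p = 0.537). It was -0.46 without Sirt1-deleted 1 and -0.072 with the number of detected genes as a covariate.

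Egln2 (ENSMUSG00000058709.11, chromosome 7, 27158658 to 27166802, minus strand), which encodes PHD1, was the highest member and had the smallest coefficient of variation over the 8 libraries (14.4%). It had 158, 181, 185 and 136 CPM in controls 1 to 4 and 125, 149, 132 and 149 CPM in Sirt1-deleted libraries 1 to 4. Sirt1-deleted 1 and 3 lay below every control. At -0.25 ± 0.13 (SE), its log2 fold change (edgeR adjusted p = 0.389) had the narrowest 95% interval of the 10, from -0.54 to 0.04. Cyp2t4 overlaps its exons on the opposite strand and had 0 to 20 counts, against at least 2880 for Egln2.

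Egln3 (ENSMUSG00000035105.5, chromosome 12, 54178981 to 54203860, minus strand) encodes PHD3, a hydroxylase that is itself a HIF target, and its promoter is the first printed above. It had 39.9, 105.0, 52.5 and 27.3 CPM in controls 1 to 4 and 39.8, 33.6, 34.1 and 28.4 CPM in Sirt1-deleted libraries 1 to 4. Control 2 stood above every other library, and the Sirt1-deleted values all lay inside the control range. The log2 fold change was -0.73 ± 0.38 (SE, 95% interval -1.59 to 0.14, edgeR adjusted p = 0.394), and -0.27 without control 2. Control 2 was also the library with the fewest detected genes, whose part in this value was not tested.

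Per kilobase of exon, Egln2 made up most of the prolyl hydroxylase transcript in every library. Its share of the 3 genes' summed level ran from 50.8 to 64.3% across the controls and from 54.8 to 67.6% across the deleted group. Egln1 took 18.3 to 22.6% and 18.8 to 26.9%. Egln3 took 13.5 to 17.8% in controls 1, 3 and 4, 31.0% in control 2, and 13.6 to 18.3% in Sirt1-deleted libraries. The log2 count ratio of Egln2 to Egln1 differed by 0.03 between the groups and that of Egln3 to Egln1 by -0.28 (exact permutation p = 0.857 and 0.600, adjusted p = 0.857 for both). Both ratios turned sign when single libraries were left out.

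**Figure D2:**
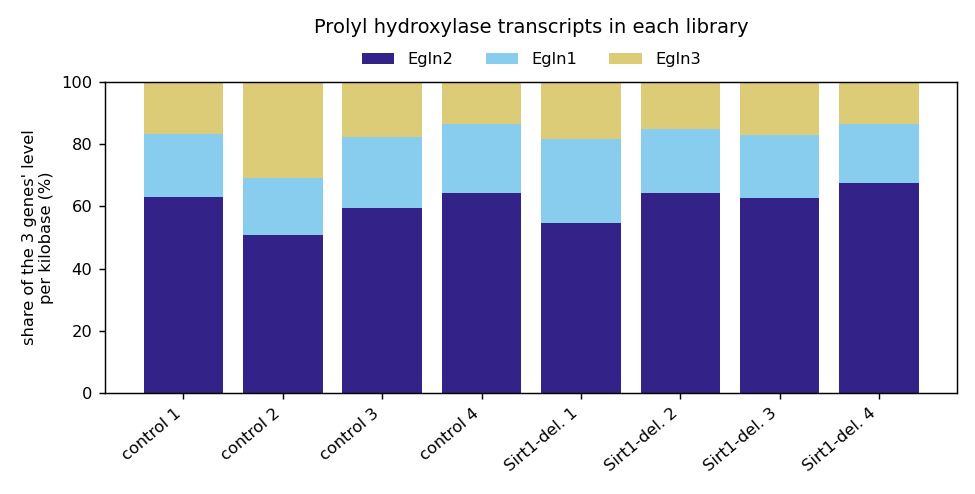
Share of Egln1, Egln2 and Egln3 in the sum of their levels per kilobase of exon (y axis, percent) in each of the 8 libraries. Egln2 is the largest part of every bar, and the part of Egln3 is 31.0% in control 2 and at most 18.3% elsewhere.

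Hif1an (ENSMUSG00000036450.4, chromosome 19, 44562850 to 44576274, plus strand), the gene of the asparaginyl hydroxylase FIH, was counted 516, 670, 23 and 322 times in controls 1 to 4 (22.2, 24.1, 1.27 and 15.3 CPM). Sirt1-deleted libraries 1 to 4 held 862, 893, 592 and 784 counts (33.3, 23.7, 24.1 and 24.1 CPM). Control 3 was far below all other libraries, and Sirt1-deleted 1 was the highest. The resulting log2 fold change was 0.74 ± 0.67 (SE, 95% interval -0.79 to 2.27, edgeR adjusted p = 0.643), and 0.32 without control 3. Control 3 is thus the library that was highest for Epas1 and lowest for Hif1an, and it had the fewest total counts.

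Vhl (ENSMUSG00000033933.13, chromosome 6, 113623959 to 113631633, plus strand), the substrate receptor of the ubiquitin ligase that removes hydroxylated HIF alpha, was near level between the genotypes. It had 21.8, 44.8, 38.8 and 37.5 CPM in controls 1 to 4 and 47.5, 25.8, 33.2 and 42.4 CPM in Sirt1-deleted libraries 1 to 4. Both groups spanned about the same range. The log2 fold change was 0.06 ± 0.28 (SE, edgeR adjusted p = 0.939), and its 95% interval, -0.57 to 0.69, leaves room for differences of either sign.

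Vegfa (ENSMUSG00000023951.16, chromosome 17, 46016993 to 46032369, minus strand), the HIF-driven growth factor of blood vessels, was tightly grouped in Sirt1-deleted libraries and spread in controls. It had 37.1, 28.6, 30.2 and 14.0 CPM in controls 1 to 4 and 19.1, 19.2, 19.1 and 16.5 CPM in Sirt1-deleted libraries 1 to 4. Controls 1 to 3 lay above all Sirt1-deleted libraries and control 4 below them. Their log2 fold change was -0.57 ± 0.29 (SE, 95% interval -1.23 to 0.09, edgeR adjusted p = 0.381). Without control 4 it was -0.79 (edgeR adjusted p = 0.127, and from 0.127 to 0.694 over 16 alternatives). Control 1, the highest for Vegfa, also had the highest summed level of mast cell and basophil markers (5402.2 CPM, elsewhere at most 1896.7) and of neutrophil markers (4924.5 CPM, elsewhere at most 3487.0). The sums of LSK, macrophage, erythroid and megakaryocyte markers were highest in control 1 too. The part of these cells in the Vegfa value was not tested.

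P4ha1 (ENSMUSG00000019916.14, chromosome 10, 59323296 to 59373304, plus strand) encodes a catalytic subunit of the collagen prolyl hydroxylase and is induced by HIF. It had 15.1, 38.4, 19.9 and 15.5 CPM in controls 1 to 4 and 22.5, 23.7, 30.1 and 28.7 CPM in Sirt1-deleted libraries 1 to 4. The Sirt1-deleted libraries lay above controls 1, 3 and 4 and below control 2, the same library that was highest for Egln3. Taking all 8 libraries, the log2 fold change was 0.24 ± 0.32 (SE, 95% interval -0.50 to 0.97, edgeR adjusted p = 0.773), and 0.60 without control 2 (adjusted p = 0.247). It fell to 0.057 without control 1, and to between 0.10 and 0.15 without control 3, control 4, Sirt1-deleted 3 or Sirt1-deleted 4. Its promoter window, printed above, holds 3 copies of the core motif.

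**Figure D3:**
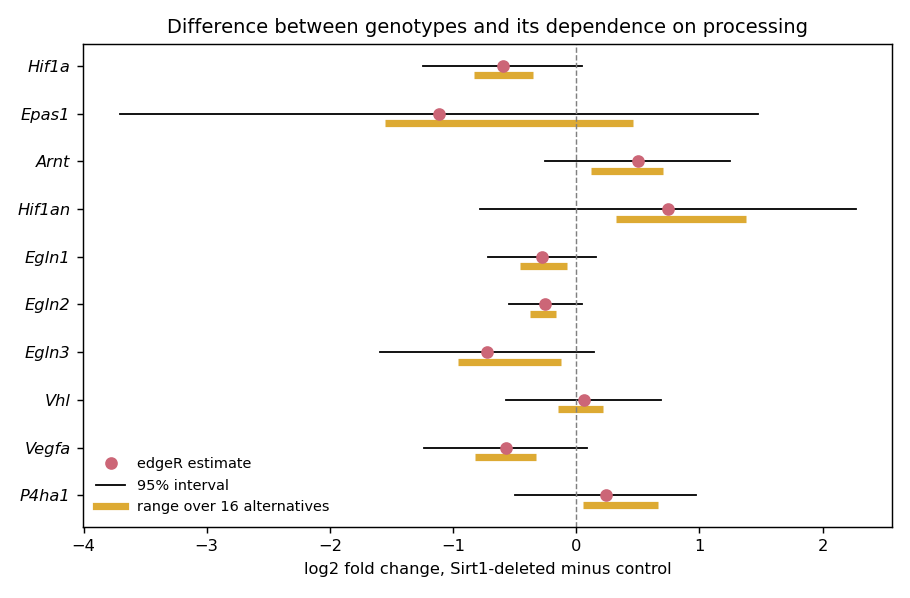
Log2 fold change of each gene, Sirt1-deleted minus control (x axis), as a point with its 95% interval (black line) from edgeR, above the range over 16 other settings (yellow bar). Every interval includes 0, and Epas1 and Hif1an have the widest.

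Within groups, 9 of the 10 genes had a larger SD of log2 CPM among controls than among Sirt1-deleted libraries, Hif1a being the exception. By the same measure, 63.4% of all genes tested had the larger spread among controls. In CPM the exception was Arnt instead, with an SD of 5.35 among controls and 6.52 among Sirt1-deleted libraries. On the log2 CPM scale the SD of Vegfa was 0.61 among controls and 0.11 among Sirt1-deleted libraries, that of P4ha1 0.62 and 0.20, and that of Egln3 0.82 and 0.20. The median SD of the 10 genes was 0.57 and 0.25, beside 0.52 and 0.39 over all genes. Among the controls, control 2 held the highest value of 5 genes (Hif1a, Hif1an, Egln3, Vhl and P4ha1) and control 3 that of 3 (Epas1, Egln1 and Egln2).

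Levels of different genes were compared per kilobase of exon. In controls Egln2 was highest at 58.9 ± 7.99 CPM per kilobase, followed by Egln3 (21.1 ± 12.8), Egln1 (20.9 ± 3.92), Vhl (11.9 ± 3.28) and Vegfa (6.41 ± 2.27). Hif1a (5.65 ± 1.36), P4ha1 (5.41 ± 2.67), Hif1an (2.38 ± 1.57), Arnt (1.99 ± 0.67) and Epas1 (0.77 ± 0.89) came after (SD, n = 4). In Sirt1-deleted libraries the order was Egln2 (49.5 ± 4.33 CPM per kilobase), Egln1 (17.2 ± 3.25), Egln3 (12.8 ± 1.74), Vhl (12.4 ± 3.22) and P4ha1 (6.38 ± 0.90). There Vegfa (4.31 ± 0.31), Hif1an (3.98 ± 0.71), Hif1a (3.74 ± 1.19), Arnt (2.81 ± 0.81) and Epas1 (0.35 ± 0.14) followed. Both orders depend on the length used. With the longest transcript as length, Sirt1-deleted libraries had Vhl at rank 3 and Egln3 at 4. Arnt was then at rank 7, Hif1a at 8 and Hif1an at 9. In controls it put Arnt at rank 8 and Hif1an at 9. Among neighbours in the control order, the ranges of 3 pairs did not overlap, Egln2 above Egln3, Egln1 above Vhl, and P4ha1 above Hif1an. In the Sirt1-deleted order this held for 4 pairs, Egln2 above Egln1, Vhl above P4ha1, P4ha1 above Vegfa, and Arnt above Epas1. The ranges of the other neighbours overlapped, although Arnt lay above Epas1 in each of the 4 controls and Egln1 above Egln3 in each of the 4 Sirt1-deleted libraries. Among the 14178 genes tested, the mean level per kilobase put Egln2 at percentile 89.8, Hif1a at 52.3 and Epas1 at 14.7.

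**Figure D4:**
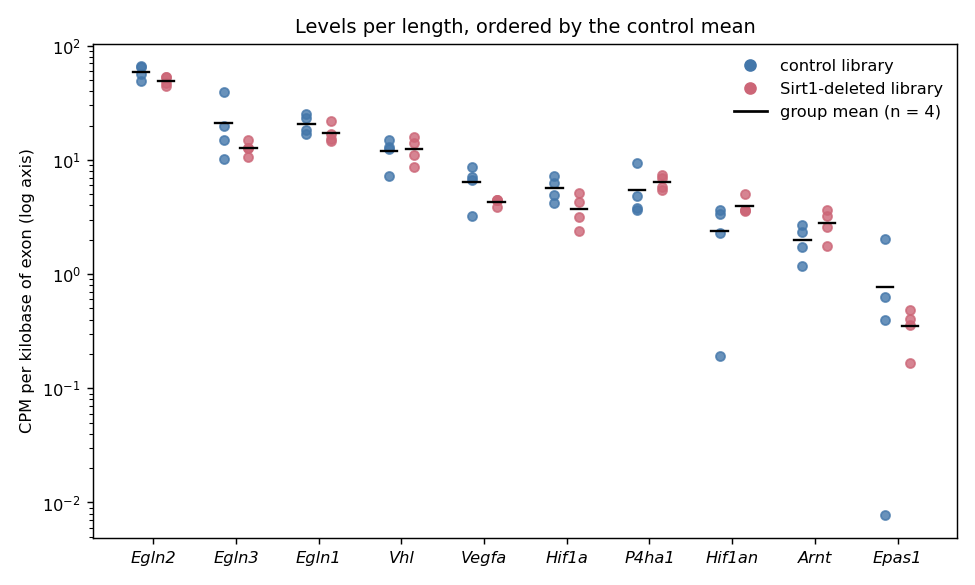
CPM per kilobase of exon (y axis, log scale) of the 10 genes, ordered by their control mean, with 4 control and 4 Sirt1-deleted libraries as points and group means as bars. Egln2 is highest and Epas1 lowest in both groups, and the low points of Hif1an and Epas1 are controls 3 and 1.

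Genes whose profile over the 8 libraries lay closest were found by the root mean square difference of centred log2 CPM. For Hif1a they were Selenom (0.15) and Nfil3 (0.18), for Egln1 Slc25a39 (0.05) and Sf3b4 (0.06), and for Egln3 Tbc1d22b (0.17) and Cyren (0.20). For Vegfa they were Rab44 (0.18) and Osgin1 (0.19). For Epas1 they were Soga1 (0.78) and Cand2 (0.83). The differences are not scaled to a gene's own spread. The root mean square of Epas1 about its own mean was 1.76, against 0.27 (Egln1) to 0.59 (Egln3) for the others. The larger differences of Epas1 therefore do not show that its profile is less shared. Each search compared at least 9636 genes, among which some lie close by number alone.

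Other genes of the pathway were described in 5 lists, of which 0 genes were called by edgeR over all genes. Without Sirt1-deleted 1, edgeR called 451 genes (3.05% of those tested), among them 9 of the lists, Rack1, Elob, Ube2d3, Aldoa, Eno1, Gapdh and Pgam1 lower and Ndrg1 and Selenbp1 higher. HIF partners and modulators had 13 of 15 genes tested, with a median log2 fold change of 0.03, which ran from -0.20 to 0.24 when single libraries were left out. The groups did not overlap for 3 of them, all lower in Sirt1-deleted libraries, where 6.44% of all genes did so. Bhlhe40, a transcriptional repressor that is also on the target list, averaged 76.2 ± 22.5 CPM in the control group and 36.2 ± 4.28 in the deleted group (SD, n = 4; log2 fold change -1.07 ± 0.22, SE, edgeR adjusted p = 0.0994). Rack1, a scaffold protein that promotes oxygen-independent loss of HIF1A, was at 1893 ± 178 and 1353 ± 88.8 CPM (edgeR adjusted p = 0.100). The chaperone gene Hsp90aa1 was at 519 ± 33.2 and 432 ± 37.4 CPM (adjusted p = 0.239). Hif3a and Arnt2, relatives of the alpha and beta subunits, were too low to test.

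The list of partners of VHL in its ubiquitin ligase had all 8 genes tested, 7 of them with negative log2 fold changes (6530 of 14178 over all genes) and a median of -0.45. Nedd8, the modifier that activates cullins, averaged 393 ± 21.4 CPM in the control group and 293 ± 24.1 in the deleted group (edgeR adjusted p = 0.106). The ubiquitin-conjugating enzyme gene Ube2d3 was at 249 ± 14.5 and 180 ± 24.8 CPM (adjusted p = 0.129), and for neither gene did the groups overlap (2 of 8 lower without overlap, where 6.44% of all genes did so). Eloc, which encodes elongin C and joins VHL to the cullin, was at 73.8 ± 11.5 and 48.5 ± 11.3 CPM (adjusted p = 0.194). The cullin gene itself, Cul2, had 23.1 and 22.6 CPM and a log2 fold change of -0.03.

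Other oxygenases that use 2-oxoglutarate, listed together with P4hb, a partner subunit that is not itself one, had 16 of 17 genes tested. The median log2 fold change of the list was 0.19. This median turned to -0.053 without control 2, -0.019 with the number of detected genes as a covariate and -0.037 after removal of length and GC trends, and was 0.087 and 0.079 without Sirt1-deleted 3 and 4. Kdm5a, an oxygen-dependent histone demethylase gene, averaged 38.6 ± 2.57 CPM in the control group and 55.7 ± 11.1 in the deleted group, without overlap (log2 fold change 0.53 ± 0.18, edgeR adjusted p = 0.194). P4hb, the partner of P4ha1 in collagen hydroxylase, and the demethylase gene Kdm4b had log2 fold changes of -0.24 and 0.37 (edgeR adjusted p = 0.364 and 0.594). Of the P4ha1 relatives, P4ha2 averaged 1.16 and 0.779 CPM and P4ha3 was too low to test.

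HIF target genes had 48 of 51 tested, 31 negative and 17 positive, with a median of -0.16 (-0.29 without Sirt1-deleted 2). At an unadjusted p under 0.05 by edgeR there were 14 lower and 4 higher, 37.5% of them against 16.2% of all genes. This list, like the others, was chosen with earlier results of these data known, so the larger share is not independent support. The groups did not overlap for 9 lower and 2 higher targets, against 6.44% lower and 6.64% higher over all genes, and 7 and 2 of them were among the 19 targets that serve glucose use. The glycolytic enzymes Aldoa (1795 ± 180 and 1115 ± 70.4 CPM) and Gapdh (2405 ± 138 and 1544 ± 143) had the smallest p (edgeR adjusted p = 0.0619 for each), followed by Pgam1 (192 ± 17.3 and 127 ± 5.60 CPM, adjusted p = 0.0741). Enzymes of this kind have processed copies elsewhere in the genome, and reads with more than one alignment were not counted, so their counts are uncertain. The targets of glucose use had a median log2 fold change of -0.19 (-0.30 without control 3). Targets of other kinds had a median of -0.093 over 29 genes, from -0.32 to -0.10 when single libraries were left out.

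VEGF ligands and receptors had 7 of 9 genes tested and a median log2 fold change of -0.54. This changed to -0.28 when Sirt1-deleted 1 was left out, -0.34 without control 1, -0.22 by limma-voom, -1.07 in the titles starting with 2 and 4 and -1.18 with the number of detected genes as a covariate. Flt1, Nrp2 and Nrp1, receptors and co-receptors of VEGF, had log2 fold changes of -1.62, -1.66 and -0.54 (edgeR adjusted p = 0.520, 0.627 and 0.631). Flt1, Nrp2, Vegfc, Pgf and Kdr averaged under 5 CPM in both groups, and of the genes tested only Vegfb and Nrp1 averaged more. The median therefore comes from a list made up mostly of genes near the floor.

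**Figure D5:**
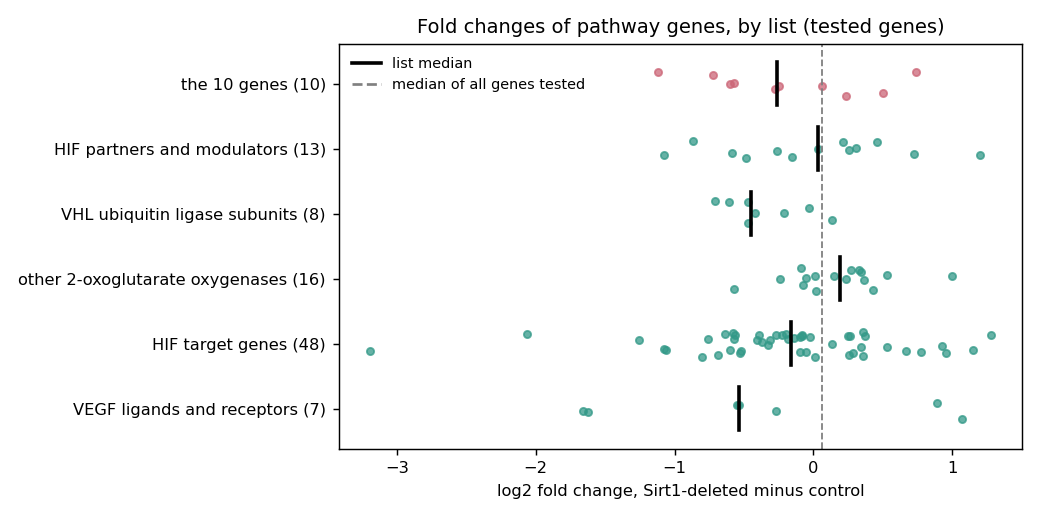
Log2 fold change, Sirt1-deleted minus control (x axis), of each tested gene (points) of the 10 genes and of 5 pathway lists, with the number tested in parentheses, list medians (black bars) and the median of all genes tested (dashed line). The ligase list lies to the left of the dashed line except for 1 gene, and the targets spread to both sides.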

How the data were processed

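RNA was measured in 8 libraries of LSK cells, 4 per genotype, made with the SMARTer Ultra Low Input v4 and Nextera XT kits per the labels' protocols. The authors deposited raw read counts per gene. The submitters' processing notes name STAR 2.5.3 and HTSeq 0.9.1, after bcl2fastq 2.18.0.12 and Trim Galore 0.5.0, with DESeq2 1.20.0 and the build GRCm38. Neither annotation release nor strand setting is given in the sources used here. These libraries carry no molecular identifiers and no strand, so PCR copies are counted and overlapping antisense genes cannot be told apart. The 5 summary rows that name no gene took 33.2 to 40.6% of the records and were left out, as were reads with several alignments.

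Columns were matched to samples by title. That of control 4 ends in another letter than its title, and no other title shares its start. The labels number no replicates, so they were numbered in order of deposit and are not paired. Replicates are called biological in the labels.

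The main test on the counts was edgeR's quasi-likelihood F test, version 4.0.16 (two-sided, in R 4.3.3 with limma 3.58.1). It used TMM scaling, the filterByExpr filter and a robust fit, and p-values were adjusted by Benjamini-Hochberg over 14178 genes, called at an adjusted p under 0.05. SE is the size of the log2 fold change divided by the root of F. DESeq2 1.42.0 was one of 16 alternatives. CPM use TMM library sizes. Lengths are exon unions of GENCODE M21. Log2 CPM have a prior count of 2. Ratios add 0.5 to each count and were compared by exact permutation over 70 assignments. On simulated data with 13490 genes, edgeR recovered 54% of the genes with a 4-fold and 5% of the genes with a 2-fold change. Over all genes, a 2-fold difference would thus mostly not be called. This share need not hold for each member. For Egln1 (-0.71 to 0.16) and Egln2 (-0.54 to 0.04) the interval of the main test excluded a 2-fold difference. So did those of Vhl (-0.57 to 0.69) and P4ha1 (-0.50 to 0.97). The intervals of Hif1a, Epas1, Arnt, Hif1an, Egln3 and Vegfa did not.

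The 10 members and the lists were chosen with earlier results of these data known. Named list genes are up to 3 of smallest p per list and any called. Cul2, Hif3a, Arnt2, P4ha2, P4ha3, Vegfb, Vegfc, Pgf, Kdr and marker genes were named beside them after their values were seen. Gene symbols were looked up in a reference name table. Promoter sequences are RefSeq's (GRCm38.p6).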

Additional observations from a re-analysis of the deposited data

Results flagged for a closer look

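Among the values of the 10 genes and their 4 ratios, 2 values stood apart from the 3 other libraries of their group by more than the critical gap ratio for 4 samples. They were Hif1an in Sirt1-deleted 1, at 33.3 CPM, and Vegfa in Sirt1-deleted 4, at 16.5 CPM. In all, 28 groups of 4 values were checked, and chance gives such a flag in about 1 of 20. The larger departures among controls (Hif1an in control 3, Egln3 in control 2, Epas1 in control 3) did not pass this rule, since the other controls were spread as well.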

How the results depend on the processing

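The count of genes called over all genes, 12, was 1281 by DESeq2, 1138 by limma-voom, 311 without the pair of libraries with the fewest detected genes, 1 in the titles starting with 2 and 4, 0 with detected genes as a covariate and 6 after removal of length and GC trends. It ran from 0 to 451 when single libraries were left out. The number of the 10 genes called was 0 in all 16 alternatives. The number at an unadjusted p under 0.05 was 4 by edgeR without control 4 (Vegfa, Egln3, Egln2 and Hif1a). It was 3 in the titles starting with 2 and 4, and 0 to 2 in the other alternatives. The share of all genes at that level was not counted for the edgeR alternatives.

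Signs of log2 fold changes held in the 16 alternatives for 8 genes. Epas1 turned to 0.46 by limma-voom (-1.56 to -0.01 over single libraries left out), and Vhl turned without control 1, Sirt1-deleted 1 or Sirt1-deleted 4 (-0.15 to 0.17). With single libraries left out, the difference in log2 ratio ran from -0.71 to 1.90 for Epas1 to Hif1a, -0.47 to 0.027 for Egln3 to Egln1 and -0.070 to 0.20 for Egln2 to Egln1, each turning sign, and with 1 count added no ratio turned.

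The median of HIF partners, 0.03, was 0.11 without the pair of libraries, -0.070 in the titles starting with 2 and 4, -0.15 with the covariate, -0.18 with the trend removed and -0.20 to 0.24 over single libraries. HIF targets ran from -0.29 to -0.15 over single libraries, with -0.27 in those titles. Targets of glucose use, -0.19, were -0.36 with the trend removed, other targets, -0.093, 0.10 by limma-voom and -0.32 to -0.10 over single libraries, and VHL partners -0.29 with the covariate. Limma-voom moved the median of all genes from 0.06 to 0.17.

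With longest transcripts as length, controls had 7.06 CPM per kilobase for Hif1a, 3.68 for Arnt and 78.3 for Egln2, and Sirt1-deleted libraries 5.20 for Arnt, 65.8 for Egln2 and 5.35 for Vegfa. These levels differ from the main ones only in the length by which the same CPM were divided. The cause of the moves in the fits above was not tested. No paired analysis was possible because the labels give no replicate numbers.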

Other observations

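By DESeq2 and limma-voom, which called more genes than edgeR on all 8 libraries, the genes called from the pathway lists were mostly those with the smallest p in the report. DESeq2 called 11 HIF targets (8.15% of all its genes with an adjusted p) and limma-voom 10 (8.03%). Of these, 9 and 7 were lower in Sirt1-deleted libraries, among them Aldoa, Gapdh, Eno1, Pgam1 and Tpi1. Among the higher ones by both tools were Aldoc (11.4 CPM in the control and 27.9 in the deleted group), a brain-type aldolase gene, and Selenbp1 (24.3 and 53.9 CPM). Both tools also called Bhlhe40, Rack1, Nedd8 and Ube2d3, all lower. These genes were named after their values were seen.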
